A study of Mus musculus with 15 samples.

Results

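Wild-type mice on an ethanol diet with a final binge were set against wild-type mice on a control diet, over all genes of the liver. The members are 8 of the 15 livers of the series, chosen by the diet in their titles: 4 livers of C57BL/6 mice on the ethanol diet (ethanol replicates 1 to 4) and 4 livers of C57BL/6 mice on the control diet (control replicates 1 to 4). Ethanol in the liquid diet was raised by daily steps to 5% and held there for 10 days, after which the mice were given 5 g/kg ethanol by gavage in the early morning. Control mice had the matching diet without ethanol and a gavage of maltose. All livers were taken 9 h after the gavage and snap-frozen, and total RNA of whole tissue was sequenced. Age and sex are not in the labels. Ethanol replicate 4 is titled wild-type while its genotype characteristic names an Fkbp5 knockout, and it is kept here under its title. The other 7 libraries, of Fkbp5 knockout mice on both diets, entered the fit to estimate the spread of each gene. They also counted in the filter that set which genes were tested. One of them, knockout control replicate 1, stood apart: its 10 most abundant genes held 59.3% of all FPKM, against 19.7 to 28.5% in the 8 wild-type livers. Without it 1051 genes were called, of which 959 were among the 1066 called with it.

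Hepatocytes oxidise ethanol to acetaldehyde through alcohol dehydrogenases, the cytochrome P450 CYP2E1 and catalase, and acetaldehyde to acetate through aldehyde dehydrogenases. These steps shift the balance of NADH to NAD+, which in turn bears on fatty acid oxidation, gluconeogenesis and lipid storage. Chronic feeding with a single binge is a mouse model of alcohol-associated hepatitis that gives fat accumulation and moderate injury, and acute intoxication is also known to activate the adrenal glucocorticoid axis.

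Values are FPKM, fragment counts scaled to transcript length and to the size of the library, which carry no read counts. Depth, estimated from the steps of low values, lay between 0.8399 and 1 of the deepest of the 8 libraries, and between 11701 and 12747 genes reached 1 FPKM in each. Hepatocyte markers were high in all 8 libraries, with summed FPKM of 29647, 25045, 28190.0 and 30183 in the ethanol livers, against 23458, 25002, 23436 and 26579.5 in the control livers. Fkbp5, the gene deleted in the knockout mice, was at 45.2 FPKM in ethanol replicate 4, against 0.351 to 5.41 FPKM in the 7 knockout libraries, and lay within the range of the other 3 ethanol livers. Xist, the RNA of the inactive X chromosome, was above 10 FPKM in ethanol replicates 2 and 4 and in control replicates 1 and 2, and Y-linked genes were expressed in the other 4 livers, so that each diet group held 2 livers of each kind. In bulk tissue, fewer cells of a type and less RNA per cell cannot be told apart.

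A gene was tested where 3 or more of the 15 libraries reached 1 FPKM. Of 13840 such genes, 1066 differed at an adjusted p under 0.05 (limma on log2(FPKM + 1), Benjamini-Hochberg over all genes tested), which is 7.7% of those tested. Among them 427 were higher in ethanol livers (3.09% of genes tested) and 639 were lower (4.62%). Fold changes are on the log2(FPKM + 1) scale throughout, which understates the change of genes with low values. The median over all genes tested was -0.04, and 299 called genes changed more than 2-fold. Of the 63 that changed more than 4-fold, 51 were higher and 12 were lower in ethanol livers. The higher ones include Ptp4a1 with copies whose reads cannot be separated, and provisional loci that moved together. They also include a transfer RNA gene listed at 0 in the control livers, so they are not all separate increases. All 4 ethanol values lay above all 4 control values in 886 genes (6.4% of those tested), and all 4 lay below in 1285 genes (9.28%). Among the called genes, 964 had groups that did not overlap and 102 had groups that did.

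**Figure D1:**
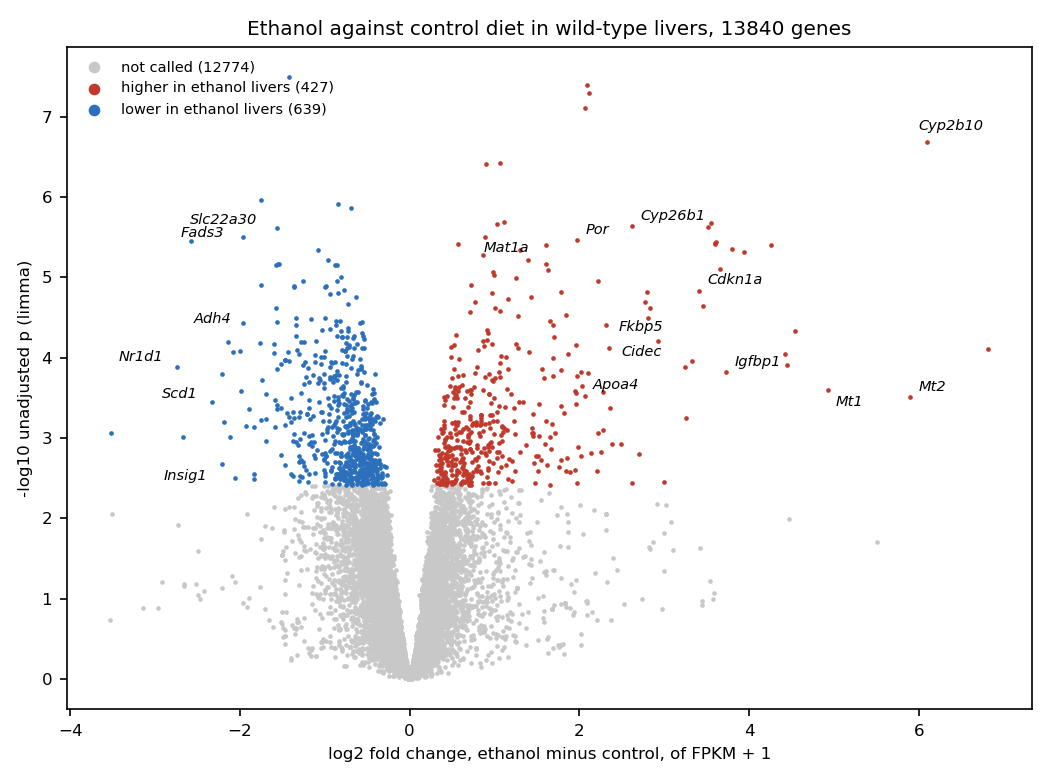
Log2 fold change of FPKM + 1 between ethanol and control livers (x axis) against the unadjusted limma p on a -log10 scale (y axis) for 13840 genes, with 427 called higher and 639 called lower. Cyp2b10, Mt2 and Mt1 lie farthest to the right among the genes labelled, and Nr1d1, Scd1 and Insig1 farthest to the left.

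The ethanol livers varied more among themselves than the control livers. The standard deviation of log2 values was larger among the ethanol livers in 9920 of 13840 genes (71.7%), with a median of 0.25 in the ethanol group and 0.16 in the control group. To see how far each liver shared the response, genes were called without it and then read in it. A left-out ethanol liver was read against the mean of the same 4 control livers that entered the calls. Its share is thus not independent of the calls, and the genes read differ from liver to liver. Ethanol replicate 1 showed a median 101% of the difference that the other livers gave in 423 genes, with 420 in the same direction. Ethanol replicates 2 and 3 showed 78.5% of it in 728 genes and 101% in 646 genes. Ethanol replicate 4 showed 41.1% in 1772 genes, of which 1549 had the same direction. This replicate, the one with the conflicting genotype label, thus showed the smallest share of the 4, and 1772 genes were called without it, against 1066 with it. Leaving out ethanol replicates 1, 2 or 3 gave 423, 728 or 646 calls, and leaving out control replicates 1, 2, 3 or 4 gave 448, 384, 675 or 509.

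**Figure D2:**
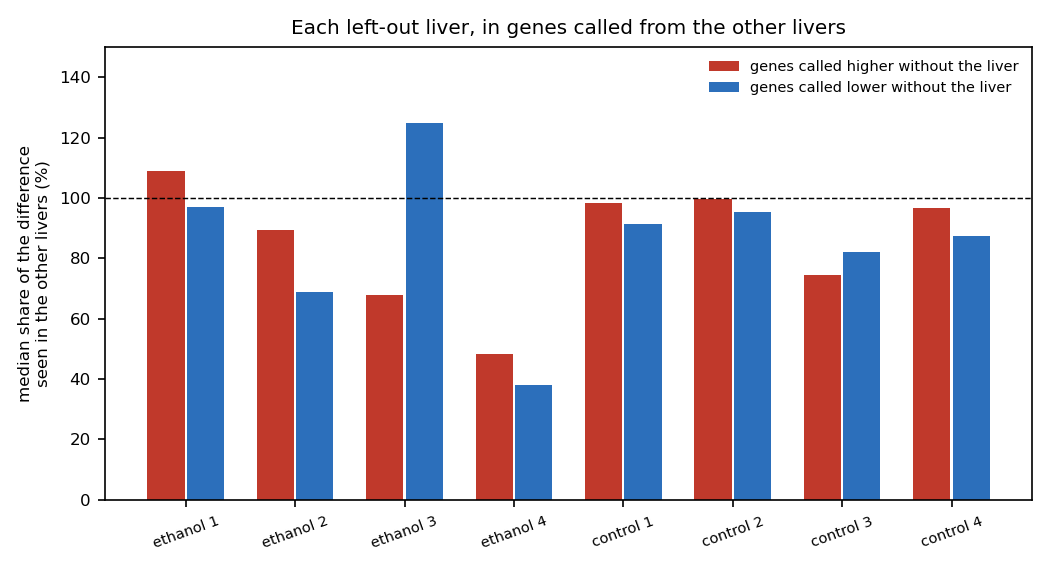
Each bar is the median share (%) of the ethanol difference of the other livers that a left-out liver showed, for genes called higher (left bar) and lower (right bar) without it. Ethanol replicate 4 showed 48.2% of the increases and 38.04% of the decreases, the smallest shares of the 8 livers, and ethanol replicate 3 showed 67.6% of the increases and 125% of the decreases.

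Of 13 tested genes of ethanol and acetaldehyde oxidation, 2 fell and 0 rose, and the unadjusted limma p was under 0.05 for 3. Cyp2e1, the microsomal ethanol oxidase, had 1409, 1557, 1968 and 2203 FPKM in the ethanol livers, against 1784, 1643, 1754 and 2764 FPKM in the control livers. The groups overlapped (log2 fold change -0.14, SE 0.25, adjusted p = 0.749). Adh1, the main liver alcohol dehydrogenase, averaged 733 ± 325 FPKM in ethanol livers and 618 ± 182 FPKM in control livers (SD, n = 4 each), and the acetaldehyde dehydrogenase Aldh2 averaged 374 ± 27.8 FPKM in ethanol livers and 410.0 ± 32.6 FPKM in control livers (SD, n = 4 each), with no call for either. Adh4, an alcohol dehydrogenase that also oxidises retinol, fell: it had 11.5, 12.6, 17.1 and 10.7 FPKM in the ethanol livers, against 34.2, 31.96, 78.9 and 86.8 FPKM in the control livers. Every ethanol value lay below every control value, and the control livers with Y-linked expression, replicates 3 and 4, stood above the other 2 (log2 fold change -1.96, SE 0.32, adjusted p = 0.00602). Adh7, a dehydrogenase best known from the stomach, fell by 0.84 log2 units (adjusted p = 0.0395).

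Large increases were found in genes that respond to the nuclear receptors CAR and PXR, which sense foreign and internal chemicals and induce drug metabolism. Cyp2b10, the best known CAR target, had 603, 159, 59.6 and 220.0 FPKM in the ethanol livers, against 2.58, 5.67, 0.758 and 0.408 FPKM in the control livers. The ethanol livers differed widely from each other, yet the lowest of them was above the highest control liver (log2 fold change 6.10, SE 0.63, adjusted p = 0.000581). Por, the reductase that passes electrons to every microsomal P450, had 422, 259, 199 and 360.3 FPKM in the ethanol livers, against 98.6, 80.3, 61.6 and 64.2 FPKM in the control livers. Its groups did not overlap (log2 fold change 1.98, SE 0.26, adjusted p = 0.00212). Of 24 tested CAR and PXR genes, 6 were called higher and 0 lower, and the median log2 fold change was 1.20, against -0.04 over all genes tested. The other 4 members called were Cyp3a13 (1.63), Cyp2c54 (1.95), Cyp2c50 (1.44) and the glutathione transferase Gsta2 (2.62), each given as a log2 fold change, and reads of the close relatives Cyp2c50 and Cyp2c54 cannot be separated. The receptor gene Nr1i3 itself was not called, at 64.5 ± 48.9 FPKM in ethanol livers and 66.4 ± 24.4 FPKM in control livers (SD, n = 4 each). Ethanol replicate 1 gave the highest median of this list, 1.85, and ethanol replicate 3 the lowest of the 4, 0.24, each as log2 units above the control mean.

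Conjugating enzymes carry out the second phase of drug metabolism. Of 16 tested sulfotransferase genes, Sult1a1, which sulfates small phenols, was called (log2 fold change 1.45, adjusted p = 0.0224). Of 17 tested UDP-glucuronosyltransferase genes, Ugt1a9 was called, at 49.5, 31.6, 8.104 and 54.5 FPKM in the ethanol livers, against 8.31, 10.1, 2.06 and 4.68 FPKM in the control livers. In ethanol replicate 3 it lay within the control range, and the Ugt1a transcripts share exons that cannot be assigned to 1 of them. Among the glutathione S-transferase genes 3 of 21 were called, all higher: Gsta2, Gsta4 and Gstt3. Gsta2 had 146, 19.7, 12.3 and 15.3 FPKM in the ethanol livers, against 2.63, 4.104, 2.25 and 6.699 FPKM in the control livers, so that a single liver carried most of the increase, and its call was lost when any of 7 of the 8 livers was left out. Reads of near-identical Gsta genes cannot be separated here, and their single levels are uncertain. NRF2, which answers to electrophiles and oxidants, had 27 tested targets and partners, of which 4 were called higher and 0 lower, with a median of 0.43. Srxn1, a sulfiredoxin that restores oxidised peroxiredoxins, had 84.5, 18.2, 24.2 and 11.2 FPKM in the ethanol livers, against 4.84, 4.57, 8.402 and 6.49 FPKM in the control livers. Ethanol replicate 1 again stood highest. Abcc4, an efflux pump of the basolateral membrane, was called at 1.51 (adjusted p = 0.0416), while Nqo1, a quinone reductase and a standard NRF2 marker, was not (1.05, adjusted p = 0.172). By liver, the median of the NRF2 list was 1.05, 0.37, 0.01 and -0.03 log2 units above the control mean in ethanol replicates 1 to 4, so that it stood clearly above the control mean in replicates 1 and 2 and near it in replicates 3 and 4. Glrx, a glutaredoxin that reduces protein mixed disulfides, rose in all 4 ethanol livers: it had 32.9, 24.04, 27.5 and 40.1 FPKM in the ethanol livers, against 10.6, 9.26, 8.81 and 8.75 FPKM in the control livers (log2 fold change 1.61, adjusted p = 0.00212).

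**Figure D3:**
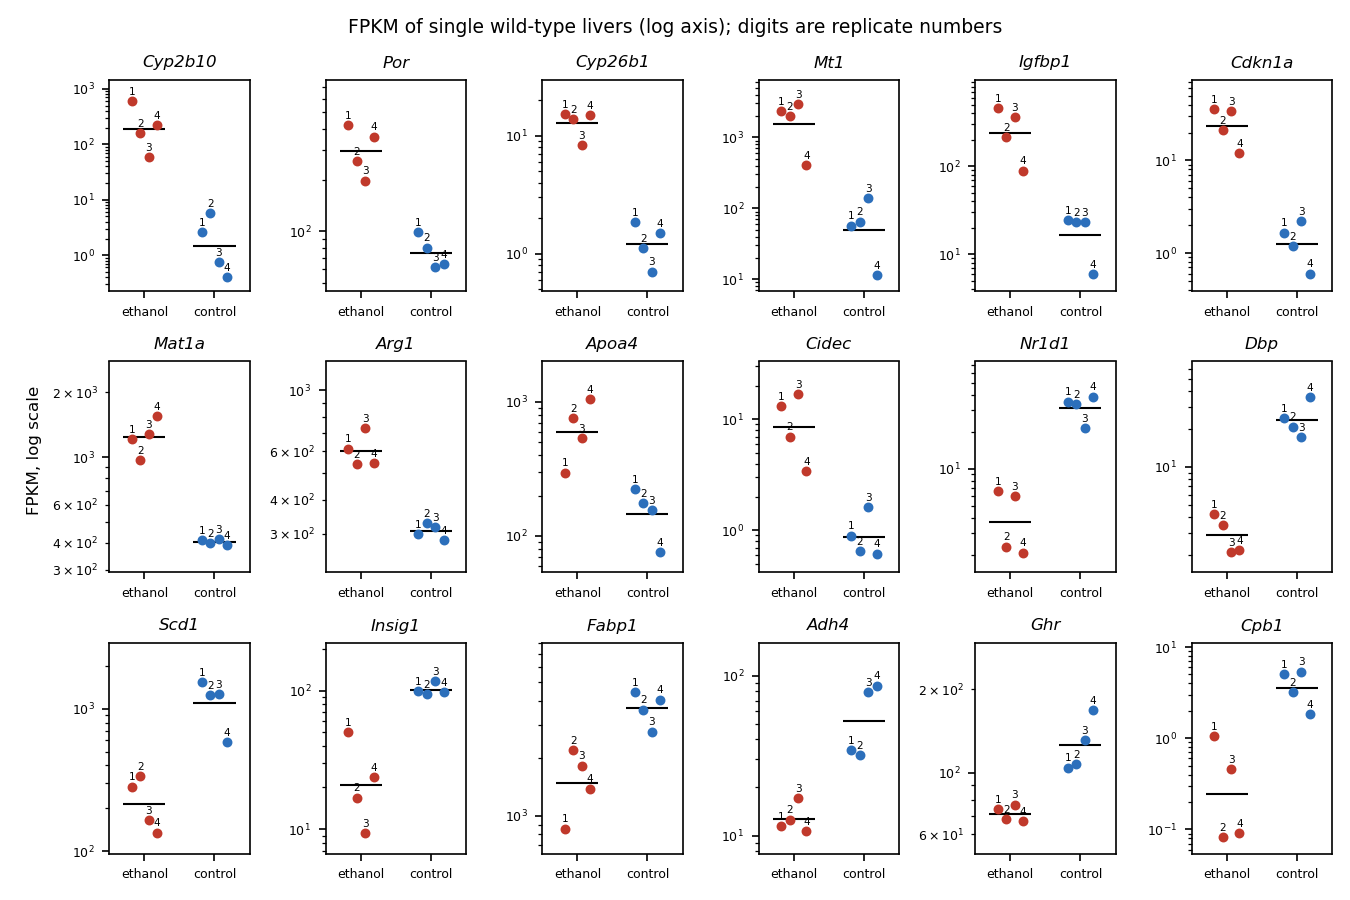
FPKM of 18 genes in single ethanol livers (left, red) and control livers (right, blue) on a log axis, with the replicate number above each point and the geometric mean as a bar. All 18 are called genes picked with their values known, and the groups do not overlap in any of them. Ethanol replicate 4 is the lowest ethanol liver for Mt1, Igfbp1, Cdkn1a and Cidec, which rose. It is also the lowest for Nr1d1, Scd1, Adh4 and Ghr, which fell.

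Metallothioneins bind zinc and copper and are induced by metals, glucocorticoids and cytokines. Mt1 had 2352, 1999, 2919 and 404 FPKM in the ethanol livers, against 56.99, 65.02, 137 and 11.3 FPKM in the control livers. Mt2 had 2244, 2261, 2260.1 and 168 FPKM in the ethanol livers, against 16.4, 18.6, 102 and 3.38 FPKM in the control livers. In both genes ethanol replicates 1 to 3 lay close together and replicate 4 far below them, although still above every control liver. The log2 fold changes were 4.93 (SE 1.00, adjusted p = 0.0136) and 5.90 (SE 1.22, adjusted p = 0.0151). Slc39a14, a zinc and iron importer, had 155, 123, 206 and 41.2 FPKM in the ethanol livers, against 33.7, 30.4, 44.3 and 28.6 FPKM in the control livers (log2 fold change 1.71, adjusted p = 0.0238), and its ethanol replicate 4 lay below control replicate 3. The transcription factor MTF-1 binds metal response elements in metallothionein promoters, and the promoters of the pair of metallothionein genes are shown because they hold the core of this element. The sequences are the 250 bases before the start in RefSeq (GRCm38.p6), 5′ to 3′ on the plus strand, for Mt1 at chr8:94178839-94179088 and for Mt2 at chr8:94172368-94172617, and capitals mark each match of TGCACNC or TGCGCNC on either strand.
Mt1: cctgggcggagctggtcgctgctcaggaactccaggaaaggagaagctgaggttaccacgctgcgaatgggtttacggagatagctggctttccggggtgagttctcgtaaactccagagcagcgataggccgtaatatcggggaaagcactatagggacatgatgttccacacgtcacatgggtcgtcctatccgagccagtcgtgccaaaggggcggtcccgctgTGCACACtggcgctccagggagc
Mt2: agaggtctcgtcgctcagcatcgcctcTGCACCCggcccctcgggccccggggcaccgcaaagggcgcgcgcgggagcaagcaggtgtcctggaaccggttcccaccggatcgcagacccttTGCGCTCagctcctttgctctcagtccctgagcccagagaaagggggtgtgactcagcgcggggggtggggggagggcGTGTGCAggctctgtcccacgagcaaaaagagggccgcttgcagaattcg
The Mt1 window held 1 match and the Mt2 window held 3 matches, which is a description of these letters and not of binding. A match was found in 6 of 11 metallothionein and zinc transport genes that have a window in the table (54.5%), and in 23.8% of all genes there.

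Genes induced by the glucocorticoid receptor were among the lists with most increases. Of 23 tested, 7 were called higher and 0 lower, 21 of 23 had a positive log2 fold change, and the median was 1.11. The 7 were Mt1, Mt2, Cdkn1a and the 4 genes described next. Fkbp5, an immunophilin gene that the receptor induces and whose product restrains it, had 54.5, 23.9, 47.9 and 45.2 FPKM in the ethanol livers, against 15.2, 9.96, 5.77 and 3.27 FPKM in the control livers (log2 fold change 2.31, SE 0.38, adjusted p = 0.006101). All ethanol livers exceeded all control livers. Zbtb16, a zinc finger repressor and a marker of glucocorticoid exposure, had 24.98, 15.4, 15.1 and 14.7 FPKM in the ethanol livers, against 7.87, 8.39, 6.49 and 2.02 FPKM in the control livers (log2 fold change 1.46, adjusted p = 0.0247). Igfbp1, which binds insulin-like growth factors and is held down by insulin, had 459, 214, 359 and 88.7 FPKM in the ethanol livers, against 24.5, 23.2, 22.9 and 5.94 FPKM in the control livers. Ddit4, an inhibitor of mTORC1, was called at 2.21, but its value of 2.17 FPKM in ethanol replicate 4 lay within the control range and the call held in 1 of 8 leave-outs. Tsc22d3, the target known as GILZ, was not called and averaged 19.2 ± 2.73 FPKM in ethanol livers and 21.6 ± 4.07 FPKM in control livers (SD, n = 4 each), and the receptor gene Nr3c1 averaged 10.9 ± 2.77 FPKM in ethanol livers and 13.9 ± 0.622 FPKM in control livers (SD, n = 4 each).

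3 of 21 tested clock genes were called, all lower. Nr1d1, which encodes the repressor REV-ERB alpha, had 6.58, 2.32, 5.99 and 2.07 FPKM in the ethanol livers, against 35.03, 33.3, 21.3 and 38.5 FPKM in the control livers. Dbp, a transcription factor that drives rhythmic liver genes, had 4.22, 3.46, 2.09 and 2.18 FPKM in the ethanol livers, against 24.4, 20.8, 17.2 and 35.7 FPKM in the control livers. Both genes were below every control liver in every ethanol liver (log2 fold changes -2.74 and -2.67, adjusted p = 0.00987 and 0.0249). Nr1d2, the paralogue of Nr1d1, fell by 0.83 log2 units (adjusted p = 0.0272). The other 18 were not called, among them the activators Arntl (0.48) and Clock (0.17). In the 250 bases before the start, neither Nr1d1 nor Dbp held the letters of the E-box CACGTG or of the D-box TTANGTAA, which says only that they are not in this window. An E-box was found there in 5 of 18 clock genes and in 6.86% of all genes, and a D-box in 1 of 18 and in 2.44%.

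Cdkn1a, which encodes the cyclin-dependent kinase inhibitor p21, had 36.1, 21.4, 33.9 and 12.04 FPKM in the ethanol livers, against 1.66, 1.19, 2.196 and 0.5998 FPKM in the control livers (log2 fold change 3.41, SE 0.52, adjusted p = 0.00362). All 4 ethanol livers stood above the control livers. The p53 target Ccng1 was not called (log2 fold change -0.28), and of 18 tested genes of the p53 list 2 were called, Cdkn1a and Ddit4, which the glucocorticoid list also holds. Egr1, an immediate early transcription factor, had 82.0, 14.8, 24.6 and 9.03 FPKM in the ethanol livers, against 2.11, 3.40, 2.36 and 1.204 FPKM in the control livers. Its lowest ethanol value exceeded its highest control value (log2 fold change 2.93, adjusted p = 0.00752). All 19 tested AP-1 and immediate early genes had a positive log2 fold change, with a median of 0.70, but Egr1 was the only member called. Proliferation genes gave 0 calls by limma among 8 tested, with 3 at an unadjusted p under 0.05, and Mki67 and Top2a, markers of dividing cells, were too low to be tested.

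Calls among genes of stress programmes are set beside the 7.7% of all genes tested that were called. With 16 and 20 genes tested, the calls of the integrated stress and unfolded protein responses cannot be told apart from that share. The integrated stress response had 0 of 16 genes called by limma, with 3 at an unadjusted p under 0.05. Of the 16, 14 had a positive log2 fold change, with a median of 0.54, against -0.04 over all genes tested. By liver, this response had a median of 0.41, 1.10, -0.18 and 0.02 above the control mean in ethanol replicates 1 to 4. The letters TGATGNAA of the ATF4 site stood in the 250 bases before the start of 7 of 18 of its members with a listed promoter, against 3.91% of all genes, on both strands. Fgf21, a liver hormone of that programme, had 3.06, 17.2, 0.846 and 7.62 FPKM in the ethanol livers, against 4.802, 4.32, 1.201 and 1.42 FPKM in the control livers. Its groups overlapped. Of 20 genes of the unfolded protein response 1 was called, the sensor Atf6 (log2 fold change 0.63, adjusted p = 0.0343, a call that held in 1 of 8 leave-outs), while the chaperone Hspa5 (0.36) and the transcription factor Xbp1 (0.82) were not. Of 20 heat shock and chaperone genes, 4 were lower and 0 higher. Hsph1, a large cytosolic chaperone, had 3.25, 1.795, 2.35 and 6.54 FPKM in the ethanol livers, against 9.13, 9.45, 11.2 and 16.5 FPKM in the control livers. Dnajb1, the Hsp40 partner of Hsp70, had 1.46, 1.59, 1.899 and 2.99 FPKM in the ethanol livers, against 4.404, 4.42, 5.34 and 6.22 FPKM in the control livers. Ethanol values lay below control values in both genes (log2 fold changes -1.56 and -1.05, adjusted p = 0.0165 and 0.00943). The HSP90 cochaperones Stip1 and Fkbp4 fell by 0.72 and 0.89 log2 units (adjusted p = 0.0193 and 0.0216).

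Of 26 tested genes of fatty acid synthesis, 5 were called lower and 0 higher, with 22 of 26 log2 fold changes negative and a median of -0.85. Srebf1, whose protein SREBP-1c drives the pathway, had 10.5, 34.1, 7.59 and 11.3 FPKM in the ethanol livers, against 56.6, 48.6, 61.1 and 49.8 FPKM in the control livers. Ethanol replicate 2 stood nearest to the control livers, as it did for the fatty acid synthase gene Fasn, which had 27.7, 92.8, 14.9 and 23.4 FPKM in the ethanol livers, against 128, 89.9, 80.8 and 47.2 FPKM in the control livers and was not called (log2 fold change -1.37, adjusted p = 0.0967). Scd1, the main desaturase of saturated fatty acids, averaged 231 ± 96.5 FPKM in ethanol livers and 1156 ± 405 FPKM in control livers (SD, n = 4 each), and its relatives Scd2, also of this list, and Scd3 were called lower, at -1.32 and -2.21. Reads that Scd1 and Scd3 share cannot be separated. Elovl5, which lengthens polyunsaturated fatty acids, had 60.5, 97.8, 84.1 and 91.8 FPKM in the ethanol livers, against 241, 228, 166 and 163 FPKM in the control livers (log2 fold change -1.25, adjusted p = 0.0124). The fifth called member was Acsl3, an acyl-CoA synthetase. Fads3, a relative of the fatty acid desaturases outside the list, fell by 1.96 log2 units (adjusted p = 0.00212). By liver, the median of the synthesis list was -0.81, -0.21, -1.29 and -0.83 in ethanol replicates 1 to 4, relative to the control mean.

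Genes of fat storage, uptake and oxidation were called in both directions. Cidec, which promotes the fusion of lipid droplets and is high in fatty liver, had 13.1, 6.99, 16.9 and 3.41 FPKM in the ethanol livers, against 0.895, 0.653, 1.62 and 0.616 FPKM in the control livers (log2 fold change 2.35, SE 0.42, adjusted p = 0.00779). The groups did not overlap. Pnpla2, the gene of adipose triglyceride lipase, also rose (0.94, adjusted p = 0.0143), and Cideb, which acts in VLDL lipidation, fell by 0.54 log2 units (adjusted p = 0.02896). The droplet coat gene Plin2 was not called, at 134 ± 59.5 FPKM in ethanol livers and 144 ± 23.04 FPKM in control livers (SD, n = 4 each). Fabp1, the abundant fatty acid binding protein of hepatocytes, had 857, 2201, 1830.2 and 1389 FPKM in the ethanol livers, against 4439, 3598, 2761 and 4057 FPKM in the control livers. Ethanol livers were all lower, replicate 1 most of all (log2 fold change -1.30, adjusted p = 0.0363). Dbi, which binds acyl-CoA, fell by 0.86 log2 units (adjusted p = 0.00596). Fabp4 and Gpihbp1, genes of adipocytes or macrophages and of capillary endothelium, rose by 1.17 and 1.14 on the log2 scale (adjusted p = 0.0347 and 0.00871). Of 38 tested genes of PPAR alpha, fatty acid oxidation and ketogenesis, 1 was called, Bdh1 of ketone body metabolism (-0.76, adjusted p = 0.0499), and it lost its call in every leave-out. At an unadjusted p under 0.05 the number was 2.

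Of the cholesterol genes, 30 of 33 tested members had a negative log2 fold change and the median was -0.60, yet 2 were called lower and 1 higher. Insig1, which retains the SREBP escort protein when sterols are plentiful, had 50.4, 16.9, 9.398 and 23.8 FPKM in the ethanol livers, against 99.1, 94.6, 116 and 96.9 FPKM in the control livers. Insig2, its paralogue, had 102, 113, 71.6 and 112 FPKM in the ethanol livers, against 30.9, 32.1, 37.2 and 21.7 FPKM in the control livers. These paralogues thus moved in opposite directions (log2 fold changes -2.21 and 1.68, adjusted p = 0.03695 and 0.0215), and the groups did not overlap in either. Mvd, a late mevalonate pathway enzyme, fell by 1.83 log2 units (adjusted p = 0.04602), a call that every leave-out lost. The median of the list, relative to the control mean, was 0.11 in ethanol replicate 1 and -0.61, -1.15 and -1.13 in replicates 2 to 4, so that replicate 1 stood apart from the other 3.

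Among genes of bile acid synthesis and transport, 3 of 23 were called, all lower. Fgfr4, the hepatocyte receptor for the intestinal hormone that restrains bile acid synthesis, had 5.397, 5.34, 4.37 and 6.77 FPKM in the ethanol livers, against 9.91, 10.1, 12.8 and 9.93 FPKM in the control livers (log2 fold change -0.86, SE 0.13, adjusted p = 0.00321). Hsd3b7, an early enzyme of the pathway, had 79.1, 70.8, 44.2 and 81.99 FPKM in the ethanol livers, against 151, 154, 123 and 156 FPKM in the control livers. Abcb11, the bile salt export pump, fell by 0.79 log2 units (adjusted p = 0.0243). The rate-limiting enzyme gene Cyp7a1 ranged too widely for a call: it had 7.59, 4.95, 0.351 and 34.7 FPKM in the ethanol livers, against 23.8, 15.9, 40.3 and 41.8 FPKM in the control livers (log2 fold change -2.06, SE 1.01, adjusted p = 0.219). Of the apolipoproteins, Apoa4, which rises with hepatic lipid load in mice, had 296, 759, 539 and 1049.7 FPKM in the ethanol livers, against 223, 175, 156 and 76.2 FPKM in the control livers (log2 fold change 2.02, adjusted p = 0.0105). Ethanol replicate 4 was the highest liver here. Apof fell by 0.52 log2 units (adjusted p = 0.0271), and the other 22 apolipoprotein and lipoprotein genes tested were not called.

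Of 22 tested retinoid genes, 2 were called higher and 3 lower. Cyp26b1, which breaks down retinoic acid, had 15.3, 13.9, 8.34 and 15.04 FPKM in the ethanol livers, against 1.84, 1.11, 0.704 and 1.48 FPKM in the control livers. The ethanol livers were alike and all above the control livers (log2 fold change 2.62, SE 0.33, adjusted p = 0.002096). Bco1, which splits beta-carotene into retinal, rose by 0.92 on the log2 scale (adjusted p = 0.0489), and Bco2, which cleaves carotenoids off centre, fell by 1.14 log2 units (adjusted p = 0.0193). Adh4 belongs to this list as well. The remaining lower member carries a provisional symbol (log2 fold change -0.76, adjusted p = 0.0271). Whether that gene acts on retinoids was not checked. The retinol carrier Rbp4 was not called, at 1627 ± 366 FPKM in ethanol livers and 1301 ± 179 FPKM in control livers (SD, n = 4 each).

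Methionine is turned into the methyl donor S-adenosylmethionine by the MAT enzymes, a step long studied in alcohol injury. Mat1a, the hepatocyte form, had 1211, 969, 1281 and 1551 FPKM in the ethanol livers, against 414, 399.8, 416 and 391 FPKM in the control livers. The control livers lay close together and every ethanol liver far above them (log2 fold change 1.61, SE 0.23, adjusted p = 0.00251). Mat2a, the form of growing and non-parenchymal cells, rose too (0.91, adjusted p = 0.00752). Nnmt, which spends the methyl donor on nicotinamide, had 111, 137, 251 and 121 FPKM in the ethanol livers, against 24.1, 29.8, 66.1 and 38.9 FPKM in the control livers (log2 fold change 1.96, adjusted p = 0.0143). Cbs, the entry to transsulfuration, fell by 0.73 log2 units (adjusted p = 0.0231). Of 31 tested genes of the methionine cycle and one-carbon metabolism these 4 were called, 3 higher and 1 lower.

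Of 20 tested genes of the urea cycle and ammonia handling, 3 were called higher. Arg1, the arginase of the urea cycle, had 613, 538, 729 and 543 FPKM in the ethanol livers, against 299, 328, 319 and 285 FPKM in the control livers. Asl, the argininosuccinate lyase, had 281, 251, 239 and 421 FPKM in the ethanol livers, against 135, 139, 116 and 119 FPKM in the control livers. Both lay wholly above the control livers (log2 fold changes 0.97 and 1.19, adjusted p = 0.00367 and 0.0144), and Cps1, the first enzyme of the cycle, was called at 0.72 (adjusted p = 0.04496) and kept its call in 1 of 8 leave-outs. Ass1, the step before Asl, was not called (0.19). The transaminases Got1 and Gpt2, which link amino acids to gluconeogenesis, rose by 1.46 and 1.37 on the log2 scale (adjusted p = 0.0238 and 0.0284), and Trib1, a pseudokinase that targets C/EBP alpha for breakdown, rose by 1.11 (adjusted p = 0.0235). Aass, the first enzyme of lysine breakdown, had 172, 86.4, 215 and 137 FPKM in the ethanol livers, against 43.1, 46.03, 48.4 and 44.3 FPKM in the control livers (log2 fold change 1.65, adjusted p = 0.00595). In the route from tryptophan to NAD, 4 of 22 genes were lower and 1, Nnmt, was higher. Haao and Qprt, successive enzymes that lead to nicotinate mononucleotide, fell by 0.75 and 0.77 log2 units (adjusted p = 0.01102 and 0.02396). Naprt, which starts from nicotinic acid, and Nadk2, the mitochondrial NAD kinase, fell by 0.62 and 0.61 (adjusted p = 0.0474 and 0.0457).

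Hormone and secreted factor genes changed singly. Ghr, the growth hormone receptor, had 73.7, 68.01, 76.8 and 66.7 FPKM in the ethanol livers, against 104, 108, 131 and 168 FPKM in the control livers. Every ethanol liver was lower (log2 fold change -0.81, adjusted p = 0.0274), while Igf1, the main product of its signal, was not called (0.38). Tsku, a secreted leucine-rich protein of the liver, had 58.6, 105, 16.3 and 20.3 FPKM in the ethanol livers, against 6.84, 3.09, 8.35 and 9.59 FPKM in the control livers (log2 fold change 2.38, adjusted p = 0.0278). Inhbc, an activin subunit gene of hepatocytes, fell by 1.23 log2 units (adjusted p = 0.01102), and Fst, which binds activins, rose by 0.73 (adjusted p = 0.0446). Growth hormone also sets sex-biased liver genes, and none of 16 male-biased or 20 female-biased genes was called by limma at an adjusted p under 0.05 (0 and 0 had an unadjusted p under 0.05), in a fit whose groups each mix 2 Xist-expressing and 2 Y-expressing livers. Within the Y-expressing livers, the summed FPKM of the male-biased list was 2087 and 7701 in ethanol replicates 1 and 3, against 9182 and 9597 in control replicates 3 and 4. The female-biased list summed to 368 and 83.5 FPKM in the same ethanol livers, against 64.5 and 84.3 in the same control livers. Hsd3b5, a steroid dehydrogenase of male mouse liver, had the most negative log2 fold change of the 16 and does not stand for the list. It was at 0.304 and 1.65 FPKM in these ethanol livers, against 38.9 and 76.8 FPKM in these control livers. In the Xist-expressing livers the male-biased list summed to 540.4 and 552 in ethanol replicates 2 and 4, against 824 and 852 in control replicates 1 and 2. All 1066 called genes had the same direction within the Xist-expressing and within the Y-expressing livers, but they were called from these same livers. In 964 of them the groups did not overlap, which fixes the direction in advance, so this is no separate check.

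**Figure D4:**
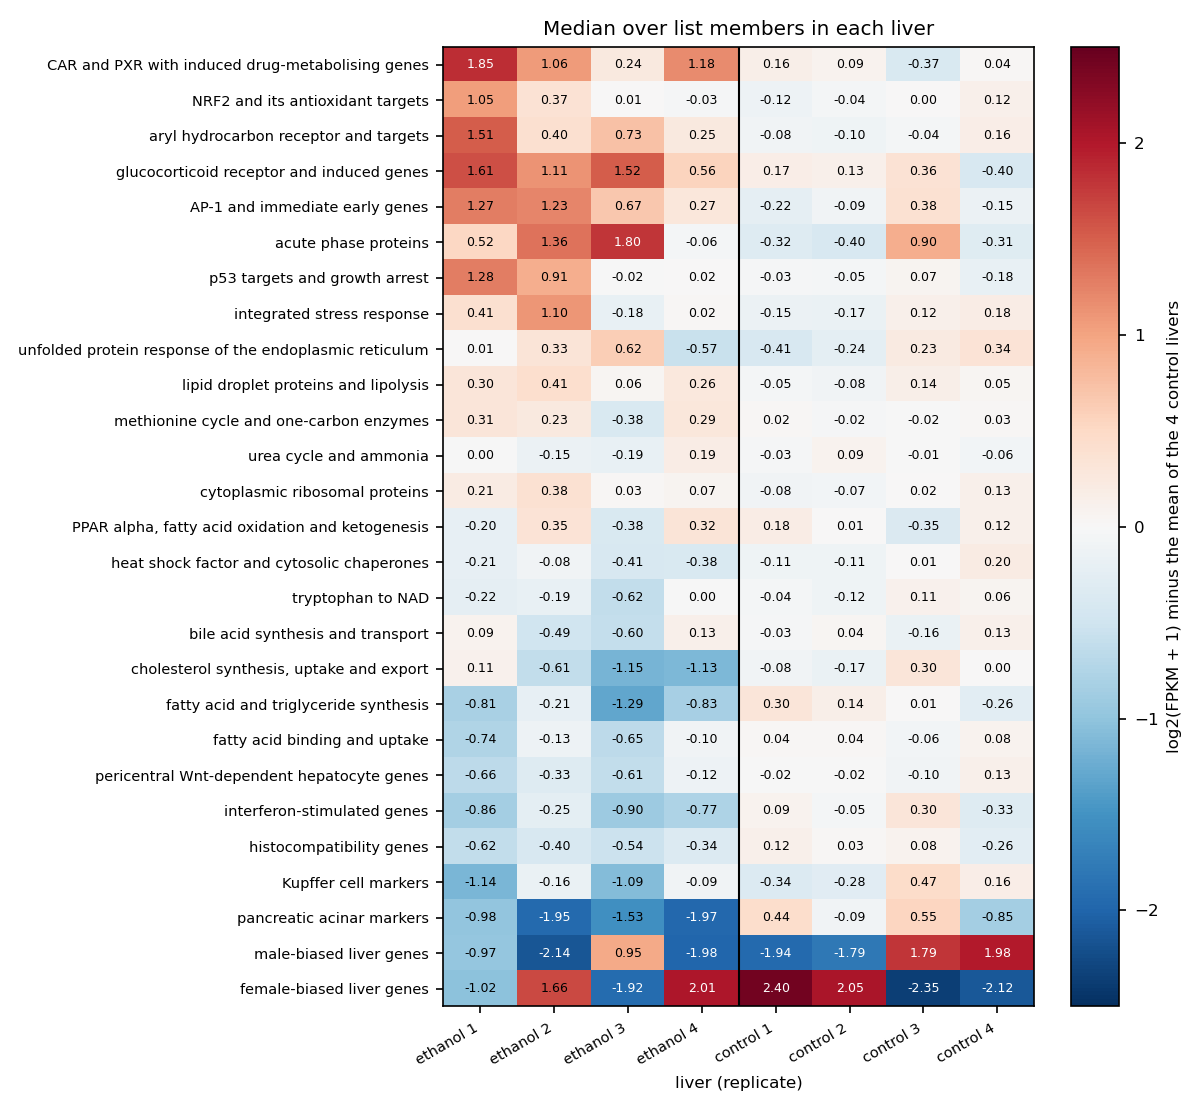
Median over the tested members of 27 gene lists in each liver (columns, ethanol livers left of the line), as log2(FPKM + 1) minus the mean of the control livers (colour and printed value). Ethanol replicate 1 leads the drug metabolism, NRF2 and aryl hydrocarbon lists, ethanol replicates 2 and 3 the acute phase list, and the male- and female-biased lists follow the Xist and Y-linked classes, except that ethanol replicate 1 is below 0 on the male-biased list.

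Acute phase genes differed widely between livers of the same group. Saa1, the major acute phase reactant of the mouse, had 18.8, 1712, 4544 and 36.2 FPKM in the ethanol livers, against 17.7, 11.02, 3372 and 56.9 FPKM in the control livers. Ethanol replicates 2 and 3 and control replicate 3 stood far above the other 5 livers, and the groups overlapped (log2 fold change 1.76, SE 2.03, adjusted p = 0.617). Of 29 tested acute phase genes 3 were called, all higher, and 27 had a positive log2 fold change: Orm3, Serpina3m and the interleukin-6 receptor gene Il6ra were called. Orm3, an orosomucoid gene, had 69.6, 39.2, 26.1 and 16.4 FPKM in the ethanol livers, against 1.78, 0.972, 14.04 and 0.969 FPKM in the control livers (log2 fold change 3.25, adjusted p = 0.00987), with control replicate 3 again the highest control liver. Il1r1, the interleukin-1 receptor and the only call among 19 tested genes of innate sensing, rose by 2.70 on the log2 scale (adjusted p = 0.0323), with an overlap through ethanol replicate 4, at 11.0 FPKM against 14.2 FPKM in control replicate 3. Cxcl1, a chemokine for neutrophils that the series title names, had 15.2, 77.9, 145 and 1.58 FPKM in the ethanol livers, against 2.24, 1.63, 16.02 and 4.23 FPKM in the control livers. Values above 15 FPKM were found in ethanol replicates 1 to 3 and in control replicate 3, and the difference was not called (log2 fold change 2.33, SE 1.14, adjusted p = 0.216).

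Of the interferon-stimulated genes, all 34 tested members had a negative log2 fold change, the median was -0.70, and 5 were called lower. Cxcl10, a chemokine induced by interferon, had 0.544, 0.761, 0 and 0.5297 FPKM in the ethanol livers, against 2.14, 2.26, 2.15 and 1.52 FPKM in the control livers. Ddx58, which encodes the RNA sensor RIG-I, had 2.59, 3.77, 2.25 and 3.205 FPKM in the ethanol livers, against 5.94, 4.88, 6.798 and 4.74 FPKM in the control livers. In neither gene did the groups overlap (log2 fold changes -1.07 and -0.74, adjusted p = 0.0112 and 0.0182). Bst2, which tethers budding virus particles to the cell, and Cxcl9, a further interferon-induced chemokine, were also called, at -0.69 and -0.82, but the call of Bst2 was lost in every leave-out and that of Cxcl9 held in 2 of 8. Gbp10, an interferon-induced GTPase that was under 1 FPKM in all 4 ethanol livers, had 0.247, 0.942, 0.1403 and 0.218 FPKM in the ethanol livers, against 5.15, 3.33, 2.58 and 1.80 FPKM in the control livers. Of the Kupffer cell markers, 12 of 13 had a negative log2 fold change, with 0 calls by limma and 2 at an unadjusted p under 0.05. Their summed FPKM was 90.7, 165, 89.9 and 185 in the ethanol livers, against 143, 149.8, 273 and 202 in the control livers, so that the groups overlapped. The part of cell composition in the interferon result was not tested.

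Markers of the other cells of the liver were mostly not called, as held for all genes tested, of which 7.7% were called. Sinusoidal endothelial markers had 1 of 19 called, and the stellate cell and matrix list had 1 higher and 1 lower of 19. Lymphocyte markers were too low to be tested in 17 of 17 cases, as were 9 of 13 neutrophil markers. The 4 neutrophil markers tested gave 0 calls by limma (0 at an unadjusted p under 0.05), with 3 of 4 log2 fold changes positive and a median of 0.41. The 13 markers had summed FPKM of 9.11, 30.6, 36.03 and 7.296 in the ethanol livers, against 5.26, 6.53, 29.9 and 12.1 in the control livers. S100a8, a calgranulin of neutrophils and monocytes, had 2.79, 12.1, 14.7 and 1.67 FPKM in the ethanol livers, against 0.544, 1.66, 11.3 and 3.96 FPKM in the control livers. Ethanol replicates 2 and 3 and control replicate 3 were the highest livers, as for Saa1, and the groups overlapped (log2 fold change 0.76, SE 0.74, adjusted p = 0.544). Ly6g, a more specific neutrophil marker, was listed at 0 in every control liver and at most at 0.213 FPKM in an ethanol liver. Among sinusoidal endothelial markers, Lyve1, a hyaluronan receptor, had 13.2, 9.54, 7.11 and 3.05 FPKM in the ethanol livers, against 2.404, 2.298, 0.655 and 0.697 FPKM in the control livers (log2 fold change 1.82, adjusted p = 0.0186), while Stab1 and Stab2 were not called (-0.51 and -0.46). In the stellate cell and matrix list Col3a1, a fibrillar collagen, had 1.56, 2.24, 1.86 and 0.858 FPKM in the ethanol livers, against 5.61, 5.07, 6.66 and 3.95 FPKM in the control livers (log2 fold change -1.28, adjusted p = 0.00752), and Pdgfra rose by 0.50 on the log2 scale (adjusted p = 0.0384). Pericentral hepatocyte genes gave 3 of 17 lower: Lgr5, a Wnt receptor partner, and Gulo and Rgn, enzymes of the ascorbate route, fell by 1.01, 0.84 and 1.00 log2 units (adjusted p = 0.0133, 0.01597 and 0.0266). Glul, the strictest pericentral marker, was not called, at 260.0 ± 71.96 FPKM in ethanol livers and 312 ± 43.1 FPKM in control livers (SD, n = 4 each).

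Pancreatic acinar genes were called in every tested member. All 17 were lower in ethanol livers, with a median of -1.59, and 9 had groups that did not overlap. Cela2a, an elastase, had 5.39, 0.812, 2.19 and 1.397 FPKM in the ethanol livers, against 17.8, 11.3, 18.5 and 6.51 FPKM in the control livers. Cpb1, a carboxypeptidase, had 1.06, 0.08304, 0.456 and 0.0915 FPKM in the ethanol livers, against 5.03, 3.17, 5.39 and 1.84 FPKM in the control livers. The 18 listed genes summed to 40.5, 8.49, 23.3 and 8.43 in the ethanol livers, against 134, 84.2, 148 and 51.6 in the control livers, in FPKM. These digestive enzymes are made by pancreatic acinar cells, and how much pancreatic RNA each liver sample held, and its part in this result, was not tested. Rnase1, which is also abundant in pancreas, was under 1 FPKM in all 4 ethanol livers and had 0.743, 0.0938, 0.0966 and 0.0517 FPKM in the ethanol livers, against 3.18, 2.23, 4.101 and 1.51 FPKM in the control livers.

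**Figure D5:**
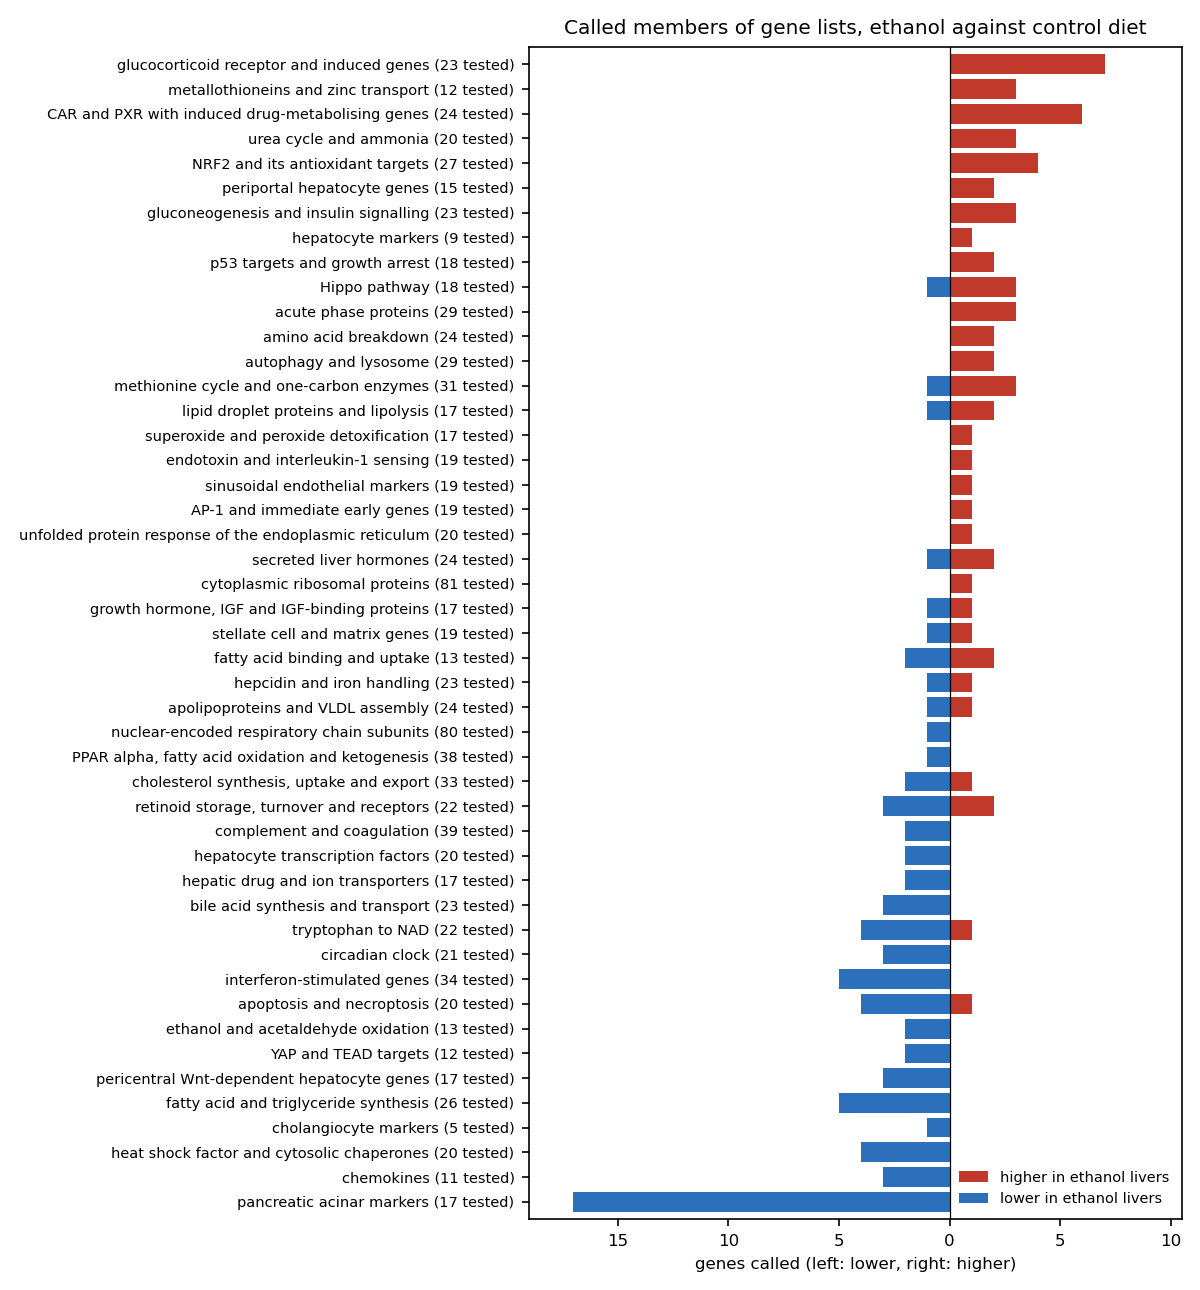
Number of called members, higher (right, red) and lower (left, blue) in ethanol livers, for every list other than gene families by symbol with at least 1 called member, with the number tested in parentheses. The largest count of increases is 7, in the glucocorticoid list, and the largest count of decreases is 17, in the pancreatic acinar list.

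The Hippo pathway, which the series title names, limits the coactivators YAP and TAZ. Of 18 tested components 3 were higher and 1 lower. Tead1, the DNA-binding partner of YAP, had 7.35, 5.797, 8.54 and 5.16 FPKM in the ethanol livers, against 2.49, 2.73, 0.7498 and 1.16 FPKM in the control livers (log2 fold change 1.52, SE 0.32, adjusted p = 0.0163). Wwtr1, which encodes TAZ, and the kinase gene Lats1 rose by 0.50 and 0.34 on the log2 scale (adjusted p = 0.0439 and 0.0487), and Amotl2, which retains YAP at junctions and is also its target, fell by 0.85 log2 units (adjusted p = 0.0156). Of 12 tested YAP and TEAD targets 2 were lower, Amotl2 and Cyr61, and 0 were higher. Cyr61, a secreted matrix protein, had 1.47, 1.01, 0.609 and 1.91 FPKM in the ethanol livers, against 4.73, 4.999, 2.96 and 4.14 FPKM in the control livers (log2 fold change -1.23, adjusted p = 0.00927), and Yap1 was not called, at 15.3 ± 2.27 FPKM in ethanol livers and 13.1 ± 1.95 FPKM in control livers (SD, n = 4 each).

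Cell death genes gave 4 lower and 1 higher of 20 tested. Gsdmd, the pore protein of pyroptosis, fell by 0.54 log2 units (adjusted p = 0.0338). Casp9, of the mitochondrial pathway, and Bbc3, which encodes PUMA, were also lower (log2 fold changes -0.75 and -0.88, adjusted p = 0.0471 and 0.0458), and Bnip3, a mitophagy receptor, was higher (0.86, adjusted p = 0.04899). Of 29 autophagy and lysosome genes 2 rose, the protease gene Ctsl, which had 313, 396, 537 and 303 FPKM in the ethanol livers, against 141, 159.9, 180.4 and 132 FPKM in the control livers (log2 fold change 1.30, adjusted p = 0.00219), and Wipi1 (0.72). Cebpa and Nr2f6 were the 2 of 20 hepatocyte transcription factor genes called, both lower: Cebpa had 50.5, 33.7, 26.5 and 69.9 FPKM in the ethanol livers, against 90.7, 96.3, 91.8 and 99.9 FPKM in the control livers (log2 fold change -1.15, adjusted p = 0.0291), and Nr2f6 fell by 0.75 on the log2 scale. Among nuclear genes of basic machinery, 1 of 81 ribosomal protein, 1 of 80 respiratory chain and 0 of 46 proteasome genes were called by limma. At an unadjusted p under 0.05 the proteasome count was 6, and 74 of 81 ribosomal protein genes had a positive log2 fold change with a median of 0.17.

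All 13 mRNAs of the mitochondrial genome had a positive log2 fold change, with a median of 0.44, and they summed to 91114, 77330.2, 69322 and 64239 in the ethanol livers, against 54312, 53049.6, 48125 and 65882 in the control livers, in FPKM. ND1, a subunit of complex I, had 4700.3, 4292, 3698 and 3563 FPKM in the ethanol livers, against 2182, 2101, 1831 and 2545 FPKM in the control livers and was the only one of the 13 called (log2 fold change 0.91, adjusted p = 0.00674). These genes were grouped after their values were seen. TrnY, a mitochondrial transfer RNA gene of 67 bases, was listed at 0 in every control liver and at 83.1, 147, 158 and 80.97 FPKM in ethanol replicates 1 to 4. As 14 of 22 mitochondrial transfer RNA genes were listed at 0 in all 4 control livers, these zeros are not read as absence, and no fold change is given for TrnY. Of 11 transfer RNA genes tested, 3 were called, all higher, TrnY included. The called ones other than TrnY were above 0 in every liver. Of 2 mitochondrial ribosomal RNA genes, 1 was called, also higher.

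Solute carriers were followed as a family, since many hepatocyte functions depend on them. Of 195 tested, 12 were higher and 11 lower. Slc22a30 and Slc22a28, organic anion transporter genes, each fell by 1.56 log2 units (adjusted p = 0.002096 and 0.00251). Slc22a30 had 15.1, 15.99, 14.2 and 25.4 FPKM in the ethanol livers, against 46.1, 49.02, 46.9 and 71.97 FPKM in the control livers. The groups did not overlap, and ethanol replicate 4 stood nearest to the control livers. Slc19a2, a thiamine transporter, fell by 1.31 log2 units (adjusted p = 0.00838). Slc25a12, a mitochondrial aspartate and glutamate carrier, rose by 0.76 on the log2 scale (adjusted p = 0.00431).

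Outside these lists, the genes with the lowest p were looked up after their values were seen. Ptp4a1, a phosphatase gene, had 108, 81.7, 78.02 and 52.7 FPKM in the ethanol livers, against 17.1, 18.5, 17.6 and 16.7 FPKM in the control livers (log2 fold change 2.09, adjusted p = 0.000234). Its processed copies Gm8783 and Gm13363, annotated as pseudogenes, followed it closely at 2.12 and 2.07, and reads of these copies cannot be separated. Nat8f1, an N-acetyltransferase gene, had 15.8, 20.6, 17.6 and 15.8 FPKM in the ethanol livers, against 51.9, 68.5, 51.9 and 72.9 FPKM in the control livers (log2 fold change -1.75, adjusted p = 0.00186), and the pseudogene Nat8b-ps fell by 1.42 on the log2 scale. Sema3f, a secreted semaphorin, had 4.32, 4.25, 4.18 and 4.55 FPKM in the ethanol livers, against 1.65, 1.597, 1.52 and 1.44 FPKM in the control livers, with little spread in either group (log2 fold change 1.06).

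A set of loci with provisional symbols also stood among the largest increases, again picked after their values were seen. Of 22 genes called higher with a log2 fold change above 3, 15 have symbols made of Gm or LOC and a number. Gm40525, of 6967 bases on chromosome 9 from 62439767 to 62446733 (GRCm38), had 1536, 701, 1857 and 540.4 FPKM in the ethanol livers, against 78.2, 66.5, 186 and 48.4 FPKM in the control livers (log2 fold change 3.60, SE 0.48, adjusted p = 0.00212). Gm41885, of 6974 bases on chromosome 19 from 60926467 to 60933440, had 1422, 659, 1756 and 508 FPKM in the ethanol livers, against 70.02, 63.2, 179.7 and 46.2 FPKM in the control livers. These loci lie on different chromosomes, and their values were nearly equal in each liver. In all, 13 provisional loci on 10 chromosomes, Gm40525 included, had a correlation above 0.95 with Gm40525 over the 15 libraries, which differ in diet and share their normalization. All 13 were called higher, which the choice by likeness to a called gene largely fixes in advance. Their sequences were not compared, and whether they share reads was not tested. Of the 13, 5 lie inside protein-coding genes of GENCODE: Gm39972 inside Cnbd2, Gm40525 inside Coro2b, Gm41885 inside Grk5, Gm42035 inside Chd9 and LOC108169013 inside Cep85. Cnbd2 itself was called at 2.83 (adjusted p = 0.00476), and its fragments cannot be told apart from those of Gm39972 within it, which had 477, 213, 535 and 159 FPKM in the ethanol livers, against 19.9, 17.4, 50.3 and 7.04 FPKM in the control livers.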

How the data were processed

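Total RNA of 15 mouse livers was sequenced on an Illumina NextSeq 500, per the labels' protocols. The authors deposited FPKM per gene and per isoform, 1 column per library, made with TopHat, Cufflinks and Cuffdiff on mm9, per the submitters' processing notes. Versions are not given in the sources used here. Isoform lengths, deposited in bases, served only to estimate depth. Of gene loci compared by symbol, 99.5% overlapped those of GRCm38, so positions are given as GRCm38. FPKM carries no counts, so depth is an estimate and no counting interval is given.

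From 45861 gene entries, genes that reached 1 FPKM in 3 or more libraries entered a fit with limma 3.58.1 in R 4.3.3 on log2(FPKM + 1), a pseudocount of 1. The fit held 4 group means over all 15 libraries, an empirical Bayes trend and a 2-sided contrast of ethanol minus control livers, with Benjamini-Hochberg adjustment over all 13840 genes and a threshold of 0.05. SE therefore reflects the spread of all 15 libraries. The fit was also run on simulated data with known changes. That simulation gave each gene the same spread in every group, unlike these livers, so no conclusion is drawn from it. Nothing in the labels says that the livers are separate beyond their titles, so p-values measure the spread between these samples. Same-numbered libraries deviated together in only 2 of 4 pairs (a correlation over 0.1), and no block was used.

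Genes were named from a pool: Fkbp5, Cxcl1, the 15 largest called changes in each direction without overlap, the first 3 members and up to 6 called members of each list, the 15 most abundant genes and up to 10 genes near 0 in 1 group only. Not every gene of the pool is named, and the choice within it was made with values known. Others are said to be chosen after their values were seen. A few genes of the lists are not reported here by name. Members and lists were chosen with earlier results of these data known. Alternatives covered the pseudocount, filter, scaling, weights, libraries included, the replicate block, an Xist term and the grouping of ethanol replicate 4. Promoter windows came from RefSeq.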

Additional observations from a re-analysis of the deposited data

Results flagged for a closer look

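Among the genes named, 1 liver stood apart from the other 3 livers of its group in 25 of 310 combinations of gene and group, judged by its gap to the nearest liver against the whole range of the group. Chance flags about 1 in 20 groups. Ethanol replicate 1 was the highest liver of its group, by this measure, for Gsta2 at 146 FPKM, Rnase1 at 0.743 FPKM and Zbtb16 at 25 FPKM. Ethanol replicate 2 was the highest liver of its group, by this measure, for Fasn at 92.8 FPKM, Gbp10 at 0.942 FPKM and Srebf1 at 34.1 FPKM. Ethanol replicate 3 was the highest liver of its group, by this measure, for Serpina3m at 1422 FPKM. Ethanol replicate 4 was the highest liver of its group, by this measure, for Amotl2 at 5.59 FPKM and Slc22a30 at 25.4 FPKM. Ethanol replicate 4 was the lowest liver of its group, by this measure, for Mt2 at 168 FPKM. Control replicate 2 was the lowest liver of its group, by this measure, for Lats1 at 6.28 FPKM. Control replicate 3 was the highest liver of its group, by this measure, for Ddit4 at 2.92 FPKM, Fgfr4 at 12.8 FPKM, Il1r1 at 14.2 FPKM, Mt2 at 102 FPKM, Orm3 at 14 FPKM and Saa1 at 3372 FPKM. Control replicate 3 was the lowest liver of its group, by this measure, for Hsd3b7 at 123 FPKM. Control replicate 4 was the highest liver of its group, by this measure, for Cyp2c54 at 72.6 FPKM, Cyp2e1 at 2764 FPKM, Nadk2 at 43.4 FPKM and Slc22a30 at 72 FPKM. Control replicate 4 was the lowest liver of its group, by this measure, for Cxcl10 at 1.52 FPKM, Dbi at 425 FPKM and Igfbp1 at 5.94 FPKM.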

How the results depend on the processing

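The counts of called genes depended on the settings, while no named called gene reversed its direction under any of them. Against 1066 calls, of which 427 were higher and 639 lower, omitting the filter on low values gave 642 (237 higher, 405 lower) and a filter of 5 FPKM gave 405 lower. Rescaling to a common sum gave 491 (160 higher, 331 lower) and moved the median of all genes to -0.12. Median-ratio scaling gave 1359 (566 higher, 793 lower) and quantile normalization 1478 (627 higher, 851 lower). Using only the 8 wild-type libraries gave 518 (221 higher, 297 lower). A term for Xist gave 1015 lower, and array weights gave 2248 (1105 higher, 1143 lower). Moving ethanol replicate 4 to the knockout group, as its genotype characteristic reads, gave 1827 (659 higher, 1168 lower). With the replicate number as a replicate block the fit gave 673 (280 higher, 393 lower), although same-numbered livers correlated at 0.01, 0.20, 0.44 and -0.06 in their deviations, and so the numbers were not taken to pair them. Leaving out 1 liver at a time gave 384 to 1772 calls, 168 to 627 higher and 216 to 1145 lower. Of the 1066, 311 were called in all 8 such fits, and of the 126 called genes named, between 73 (without ethanol replicate 1) and 118 (without ethanol replicate 4) kept the call. Under other settings, 49 of these 126 lost the call without the filter, 46 with rescaling to a common sum and 41 with only the 8 wild-type libraries. The replicate block lost 25, the fit without knockout control replicate 1 lost 9, and the remaining settings lost 0 to 6. Genes that a setting did not test are not counted as lost. The filter of 5 FPKM tested 112 of the 126, and a fit of protein-coding genes only tested 117. The calls of Bst2, Mvd and Bdh1 held in 0 of 8 leave-outs. Those of Gsta2, Srxn1, Ddit4, Atf6, Bco1, Cps1, Nadk2, Fst, Il6ra, Cebpa, Pdgfra, Bbc3, Casp9 and Bnip3 held in 1. The cause of these shifts was not tested. Genes without a call changed sign in a few fits. With quantile normalization Adh1 was at -0.011 and Ass1 at -0.056 on the log2 scale. Leaving out 1 liver at a time gave -0.061 to 0.49 for Adh1, -0.25 to 0.025 for Cyp2e1, -0.80 to 0.27 for Nr1i3 and -0.41 to 0.010 for Plin2. FPKM gives no read counts, so depth sets no stated limit for single genes.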
